A study of Mus musculus with 2 samples.

Results

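Pancreatic acinar-like cells were present among cells sorted from the intestinal lamina propria of mice carrying the ApcMin allele. They were defined as droplet barcodes with at least 500 unique molecular identifiers (UMIs, tags that count captured RNA molecules) and at most 20% of UMIs from mitochondrial genes, in which 8 genes of pancreatic secretion together made up at least 10% of the UMIs. The 8 genes encode the serine proteases *Prss2*, *Ctrb1*, *Cela1*, *Cela3b* and *Cela2a*, the carboxypeptidase *Cpa1*, the triglyceride lipase *Pnlip* and its cofactor *Clps*. In all, 92 of the 17676 barcodes within the UMI and mitochondrial limits met this rule. These were 55 of 8097 barcodes (0.679%, exact 95% binomial interval 0.512 to 0.883%) in ApcMin and 37 of 9579 (0.386%, 0.272 to 0.532%) in VApcMinL. The levels of the 8 genes chose the cells, so these levels are given as a description and without a test. Intervals cover counting error only.

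The libraries were made to examine how loss of the transcription factor Lef1 affects *Apc*-mutant intestinal tumors and the tissue around them. ApcMin mice were ApcMin/+;*Lef1* +/+, and VApcMinL mice carried ApcMin/+, *Lef1* fl/fl and Villin-Cre, which deletes *Lef1* constitutively in the intestinal epithelium. All mice were C57BL/6 and, per the labels and the methods of the study, 11 weeks old, although its results text gives 10 weeks. The number of mice in each library was not given. Lamina propria was dissociated with EDTA and the collagenase blend Liberase TL, and live cells without Epcam (epithelium), CD45 (leukocytes) and Ter119 (red blood cells) on their surface were sorted for 1 droplet library per genotype. The ApcMin library held 93203061 UMIs and the VApcMinL library 101609269 UMIs. With 1 library per genotype there was no replicate spread and no test, and genotype cannot be told apart from mouse, dissection, sort or library. No acinar-like barcode occurred in both libraries, whereas 27 of the barcodes within the limits did. *Lef1* itself had 0 UMIs in the acinar-like cells of either library, so its deletion could not be assessed in them.

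Acinar cells form the exocrine pancreas, which lies against the duodenum and empties into it. They make digestive enzymes, mostly as inactive precursors, store them in zymogen granules and release them when cholecystokinin or acetylcholine reaches the cell. The factor PTF1, in which *Ptf1a* pairs with *Rbpjl*, binds promoters of many of these genes through an E-box and a TC-box, and *Bhlha15* builds up the secretory machinery.

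The promoters of the 8 genes were searched for the letters of these boxes, as a description. The summed share of these genes chose the cells, so nothing is read from their detection in the same cells. The window was the 250 bases upstream of the RefSeq start on GRCm38.p6, and the motifs were CACCTG for the E-box and TTTCCC for the TC-box, on both strands. The motifs can overlap each other by at most 1 base. A sequence was found for 7 of the 8 genes, all except *Clps*. CACCTG was present in 4 of the 7 (*Cela1*, *Cela2a*, *Cela3b* and *Prss2*) and TTTCCC in 5 (*Ctrb1*, *Cpa1*, *Cela1*, *Cela2a* and *Prss2*). Of all 32851 promoters, 17.2% held CACCTG, 21.9% held TTTCCC and 3.61% held both. Both were present in *Cela1*, *Cela2a* and *Prss2*, which are shown with the motif letters in capitals, each 5′ to 3′ on the strand of its gene. The *Cela1* window is chr15:100687921-100688170 on the minus strand, with CACCTG starting 109 bases and TTTCCC 99 bases before the start. The *Prss2* window is chr6:41521526-41521775 on the plus strand, with CACCTG 169 bases and TTTCCC 110 and 78 bases before the start. The *Cela2a* window is chr4:141826006-141826255 on the minus strand, with CACCTG 218 bases and TTTCCC 84 bases before the start.
Cela1: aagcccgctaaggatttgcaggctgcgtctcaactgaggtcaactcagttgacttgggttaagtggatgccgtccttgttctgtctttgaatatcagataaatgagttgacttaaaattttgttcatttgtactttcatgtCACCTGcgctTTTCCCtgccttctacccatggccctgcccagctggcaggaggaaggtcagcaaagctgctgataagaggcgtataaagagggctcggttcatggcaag
Prss2: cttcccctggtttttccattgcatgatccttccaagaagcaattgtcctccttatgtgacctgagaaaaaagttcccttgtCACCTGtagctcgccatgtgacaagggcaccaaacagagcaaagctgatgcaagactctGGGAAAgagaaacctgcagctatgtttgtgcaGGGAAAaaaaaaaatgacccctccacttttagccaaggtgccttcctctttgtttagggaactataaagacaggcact
Cela2a: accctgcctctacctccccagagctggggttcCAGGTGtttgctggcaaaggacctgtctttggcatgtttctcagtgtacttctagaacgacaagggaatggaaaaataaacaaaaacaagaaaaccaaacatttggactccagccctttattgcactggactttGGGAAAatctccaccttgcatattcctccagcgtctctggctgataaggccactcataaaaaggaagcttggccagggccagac
Among the acinar enzyme genes that the rule did not use, 18 promoters were found, of which 10 held CACCTG and 3 held TTTCCC. All 3 with TTTCCC (*Prss1*, *Cel* and *Cela3a*) also held CACCTG. The 18 include *Amy2b*, which held CACCTG but was not among the genes in the files. Of 14 promoters of granule and secretion genes, 6 held CACCTG, 4 held TTTCCC and 1 (*Reg3d*) held both. These matches describe letters in a window and do not show binding.

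The 8 genes made up a median of 40.3% of the UMIs of an acinar-like cell in ApcMin (10.0 to 51.5%) and 38.9% in VApcMinL (16.1 to 54.0%). In the empty droplets, the barcodes ranked 45000 to 90000 by UMIs, their share was 0.569% (0.561 to 0.577%) in ApcMin and 0.191% (0.188 to 0.195%) in VApcMinL. Pooled over cells the share was 39.5% in both libraries, 69.5 times the empty droplets of ApcMin and 206.5 times those of VApcMinL. These folds depend on the empty range, since in the 90000 barcodes after rank 90000 the empty shares were 0.0789% and 0.0939%, in the opposite order. The empty range itself held 46 ApcMin and 16 VApcMinL barcodes with at least 10% of UMIs from the 8 genes, and the empty shares were 0.553% and 0.183% without them. In all other barcodes within the limits, the pooled share was 0.0157% and 0.0137%, with a median of 0 in both libraries.

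Few barcodes lay near the 10% threshold. The cells just inside it had 10.0, 13.1 and 17.3% in ApcMin and 16.1, 21.3 and 22.5% in VApcMinL. The barcodes just outside had 9.16, 5.79 and 5.76% in ApcMin and 8.22, 7.96 and 5.83% in VApcMinL. In ApcMin, 8007 barcodes were below 1%, 32 lay between 1 and 5% and 3 between 5 and 10%. The corresponding VApcMinL counts were 9516, 23 and 3.

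**Figure D1:**
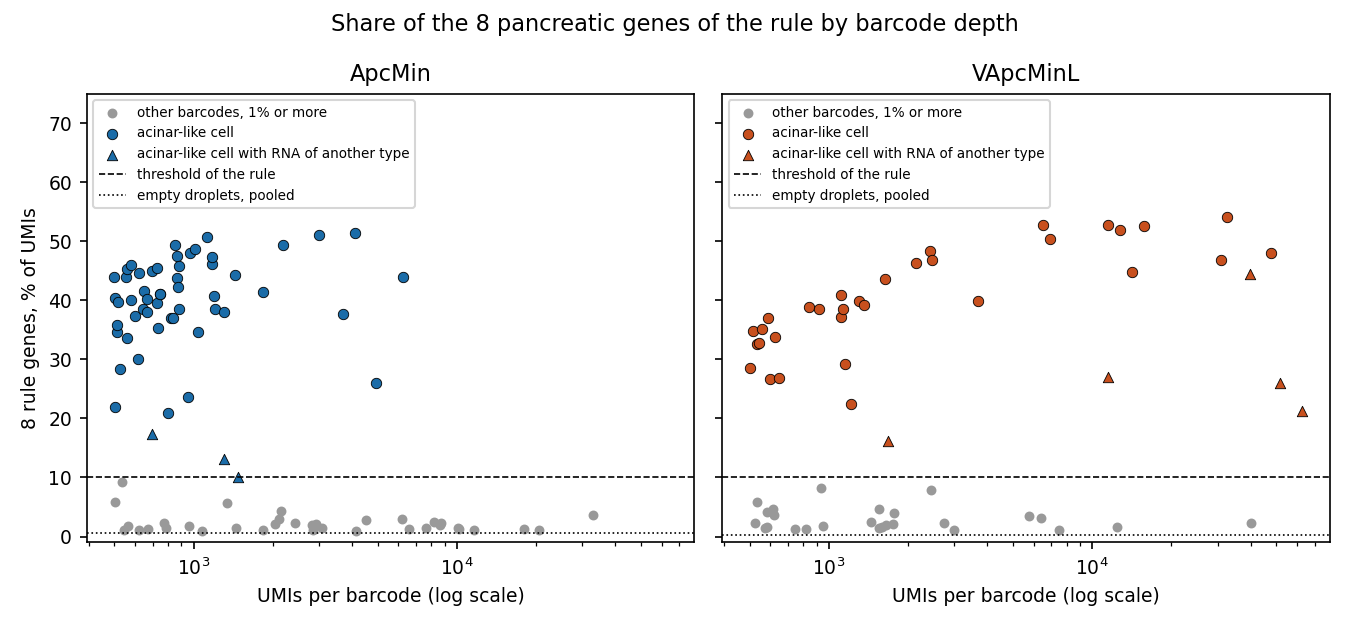
UMIs per barcode (x, log scale) and percent of UMIs from the 8 pancreatic genes (y, linear) in ApcMin and VApcMinL, with circles for acinar-like cells, triangles for those with RNA of another cell type, grey points for other barcodes with at least 1%, a dashed line at the 10% threshold and a dotted line at the empty-droplet share. Acinar-like cells had medians of 40.3% and 38.9%, and 11 VApcMinL cells but no ApcMin cell had 8000 UMIs or more.

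The libraries differed in the depth of the acinar-like cells. ApcMin cells were shallow, with a median of 819 UMIs (500 to 6237, quartiles 618.5 and 1178), against 9096 UMIs in the other ApcMin barcodes. VApcMinL cells had a median of 1641 UMIs and a wide range (502 to 62783, quartiles 844 and 11517), against 5748 UMIs in the other VApcMinL barcodes. All 11 acinar-like cells with at least 8000 UMIs came from VApcMinL. In ApcMin, 0 of 3085 barcodes with 8000 to 15999 UMIs were acinar-like, with an exact upper bound of 0.120%, against 5 of 2785 in VApcMinL (0.180%, 0.0583 to 0.418%).

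At low depth the order of the libraries was the opposite. From 500 to under 1000 UMIs, 37 of 504 ApcMin barcodes (7.34%) and 11 of 982 VApcMinL barcodes (1.12%) were acinar-like. From 1000 to under 2000 UMIs these were 12 of 555 (2.16%) and 9 of 1198 (0.751%). ApcMin was still higher from 2000 to under 4000 UMIs (0.325% against 0.257%) and from 4000 to under 8000 UMIs (0.176% against 0.0971%), with 6 cells of each library in these ranges together. The share of acinar-like cells in VApcMinL was 0.569 times that in ApcMin (0.364 to 0.878) at a minimum of 500 UMIs, but 1.28 times (0.673 to 2.47) at 1000 UMIs and 2.70 times (1.01 to 8.35) at 2000 UMIs. The ratio thus changed direction with the UMI minimum, and no difference in abundance between the genotypes is read from it.

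**Figure D2:**
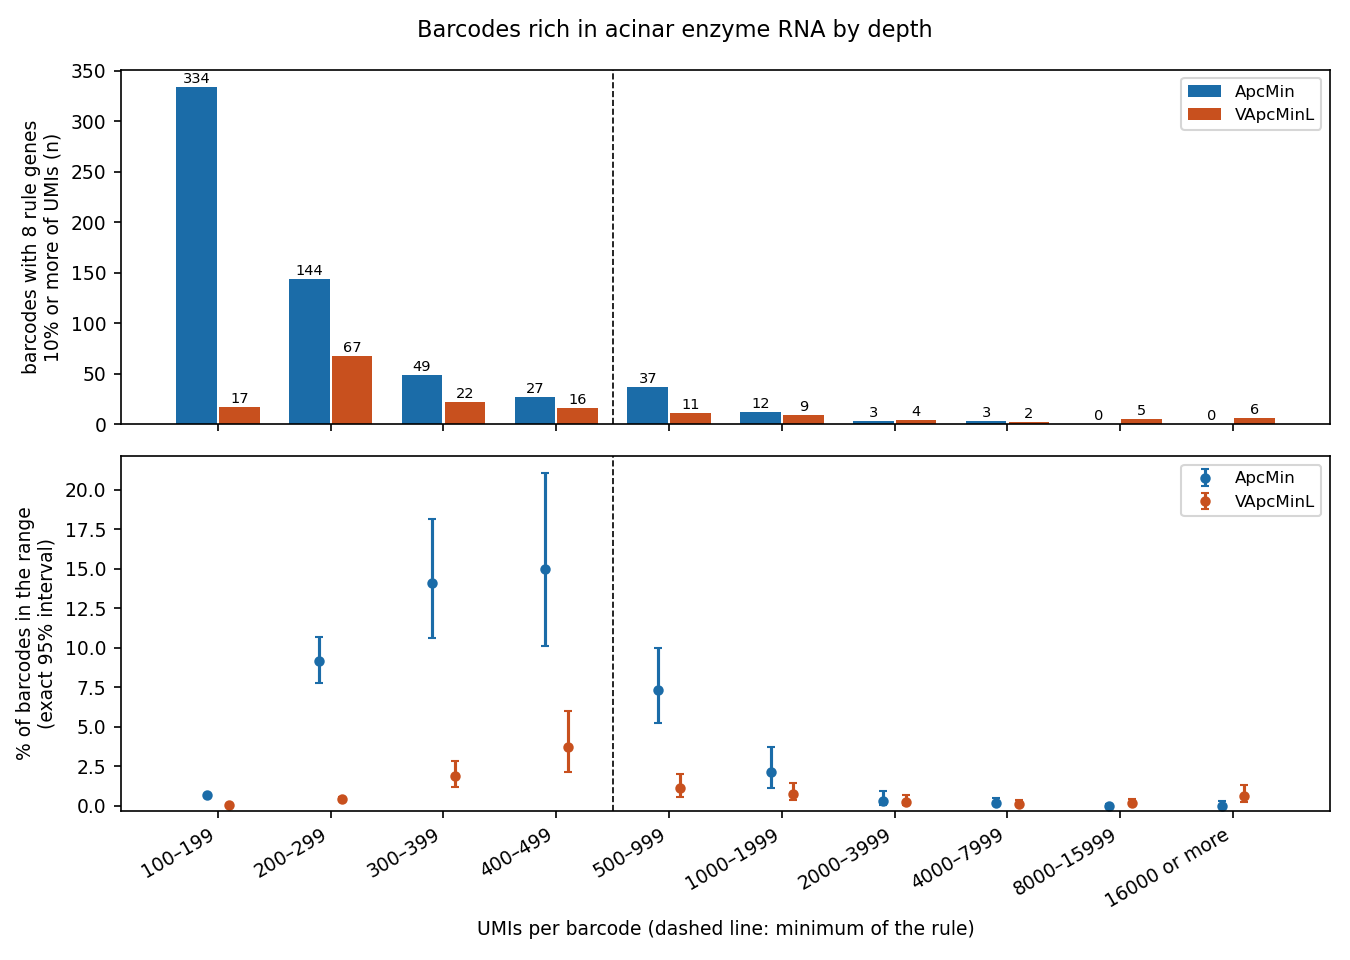
Number (upper panel, bars) and percent (lower panel, points with exact 95% binomial intervals) of barcodes within the mitochondrial limit that had at least 10% of UMIs from the 8 genes, in ranges of UMIs per barcode (x), with a dashed line at the minimum of 500 UMIs. From 500 to under 1000 UMIs the shares were 7.34% and 1.12%, and at 16000 UMIs or more they were 0 of 1323 and 6 of 998 barcodes.

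The cells held a broad set of acinar secretory genes beyond those of the rule. Among genes that reached 20 UMIs in these cells, 40 of 152 genes (26.3%) in ApcMin and 68 of 913 (7.45%) in VApcMinL were at least 2-fold higher in CPM (UMIs of a gene scaled to a common total) than in the other barcodes, with median log2 ratios over all these genes of -1.05 and -0.94. All 13 acinar enzyme genes outside the rule with that many UMIs in ApcMin, and all 15 in VApcMinL, were among them. So were 11 of 11 granule and secretion genes in ApcMin and 16 of 17 in VApcMinL, the exception being *Vamp8*, a granule membrane fusion protein, at 72.1 CPM against 108.6 CPM. The cells were chosen by genes with which these are known to be coexpressed, so these counts describe the cells and nothing is read from the shares. CPM were taken over summed UMIs, so deep cells weigh most. The deepest cell held 9.60% of the summed UMIs in ApcMin and 16.8% in VApcMinL, where it also held RNA of another type.

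Among the 8 genes themselves, the chymotrypsinogen gene *Ctrb1* (ENSMUSG00000031957, chr8:111686519-111691010, minus strand) was the most abundant, at 84944 CPM (82717 to 87215) in ApcMin and 104429 CPM (103397 to 105470) in VApcMinL. It had a UMI in every acinar-like cell, also after each cell was thinned to 500 UMIs. In fibroblast-gene barcodes, other barcodes with at least 2% of UMIs from 10 fibroblast genes, which should lack *Ctrb1*, 14.7% in ApcMin and 15.7% in VApcMinL had a *Ctrb1* UMI, at median depths of 13222 and 10245 UMIs, and 1.20% and 1.40% of 500 barcodes per library did after thinning. The trypsinogen gene *Prss2* (ENSMUSG00000057163) reached 71025 and 74341 CPM, and the elastase gene *Cela1* (ENSMUSG00000023031) 43542 and 36502 CPM. *Cpa1* (ENSMUSG00000054446), which removes C-terminal residues from peptides, was at 45744 CPM in ApcMin and 32937 CPM in VApcMinL. Each of the 8 genes was at least 54.3 times its level in the empty droplets of ApcMin and 156 times in those of VApcMinL.

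Further proteases outside the rule were abundant in both libraries. *Try5* and *Try4*, also trypsinogens, were at 28191 and 24712 CPM in ApcMin and at 35233 and 19276 CPM in VApcMinL. *Cpb1*, a carboxypeptidase for basic residues, was at 27067 and 25027 CPM, and the chymotrypsin-like *Ctrl* at 24450 and 25118 CPM. The tissue kallikrein gene *Klk1* was lower, at 4573 and 3796 CPM. Of the genes outside the rule at 4 or more times their empty-droplet level, the most abundant was *2210010C04Rik* at 40586 and 41203 CPM, which was in none of the acinar lists. It lies at chr6:41030268-41035509, on the chromosome that also holds *Try4*, *Try5*, *Try10*, *Prss1*, *Prss2* and *Prss3*.

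Close relatives make some of these values uncertain. Of the 50-base stretches in the last 500 bases of the transcripts, 59.4% in *Try4*, 55.5% in *Try5*, 47.9% in *Try10*, 75.2% in *Prss3* and 63.0% in *Prss1* also occurred in another gene, against 8.43% in *Prss2* and 0 in *Ctrb1*. *Cela2a* shared 57.9% with *Ctrc*, whose gene model overlaps it on chromosome 4, *Cela3b* shared 31.0% with *Cela3a*, which shared 26.4% with it, and *Klk1* 32.9% with 8 Klk1b genes. *Prss1* had 0 UMIs in both libraries, *Prss3* had 8 and 31 UMIs, *Try10* 21 and 171 UMIs and *Ctrc* 7 and 65 UMIs. *Cela3a* had 0 and 2 UMIs. None of the stretches in the last 500 bases of *Ctrc* occurred in another gene. The effect of shared stretches on the counts was not tested.

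The lipid enzymes were also detected. *Pnlip*, of the rule, was at 56783 and 36379 CPM and its cofactor *Clps* at 31933 and 46716 CPM. Outside the rule, *Cel*, which cleaves cholesterol esters, was at 13010 CPM (12148 to 13918) in ApcMin and 7705 CPM (7426 to 7991) in VApcMinL. The lipase-related *Pnliprp1* was at 11886 and 12433 CPM, *Pnliprp2* at 2248 and 1613 CPM and the phospholipase *Pla2g1b* at 3326 and 2534 CPM. The pancreatic ribonuclease *Rnase1* was at 19739 and 19393 CPM.

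Amylase, which digests starch, was detected mainly as *Amy2a5*. It was at 1632 CPM (1336 to 1974) in ApcMin and 1252 CPM (1141 to 1371) in VApcMinL. *Amy2a1* had 0 UMIs in both libraries, *Amy2a2* had 1 and 13 UMIs, *Amy2a3* 0 and 11 UMIs and *Amy2a4* 2 and 9 UMIs. All of the last 500 bases of these 4 genes occurred in other amylase genes, so their counts are uncertain. *Amy2b* was not among the genes in the files. In total, 17 of the 21 enzyme genes had a UMI in ApcMin and 19 of 21 in VApcMinL, and together they made up a median of 16.9% and 17.3% of a cell's UMIs.

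**Figure D3:**
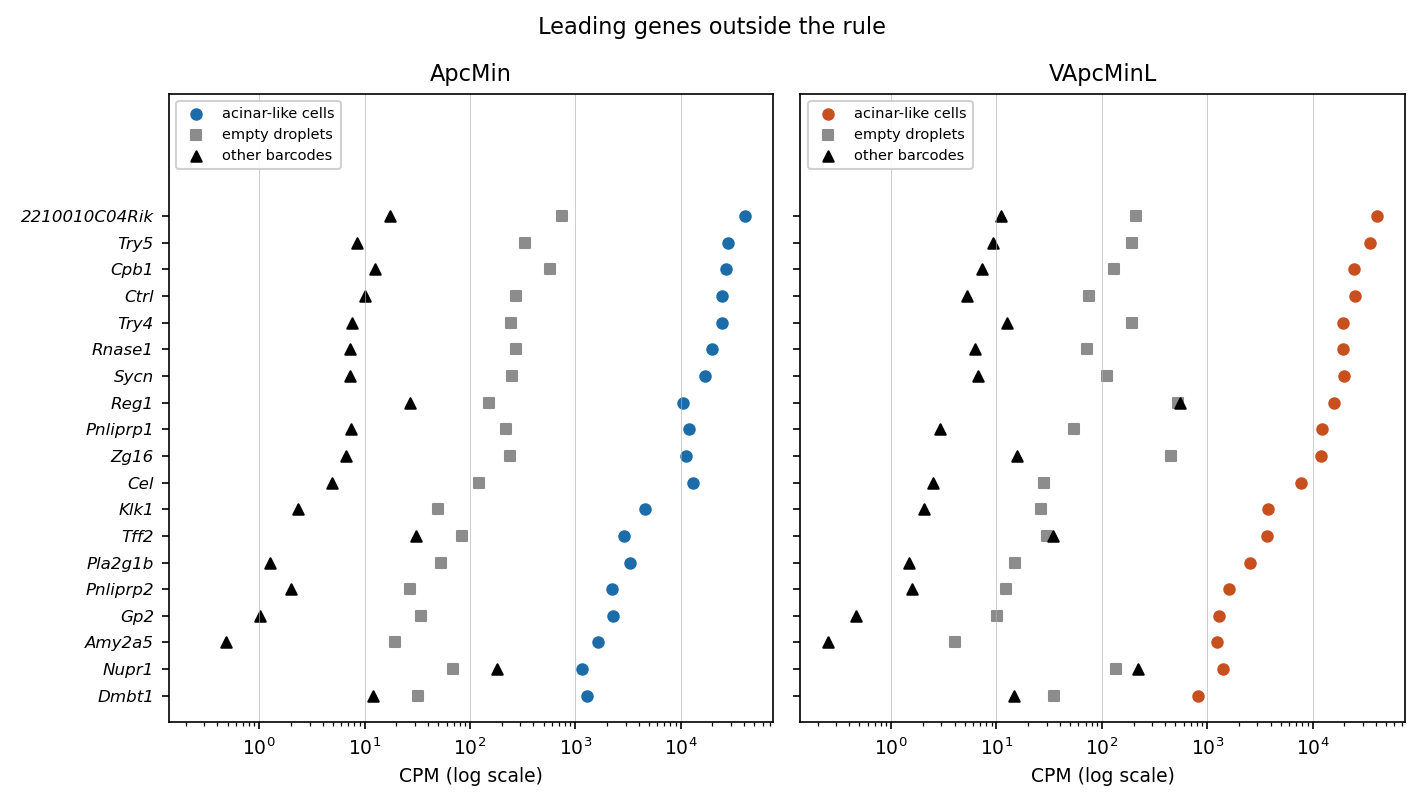
Levels (x, CPM, log scale) of leading genes outside the rule (y) in acinar-like cells (circles), empty droplets (squares) and other barcodes (triangles) of ApcMin and VApcMinL. The highest, *2210010C04Rik*, was at 40586 and 41203 CPM in the cells and at 748.6 and 213.2 CPM in the empty droplets.

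Genes of zymogen granules followed the enzymes. *Sycn*, a protein of the granule membrane, was at 17137 and 19778 CPM, and the granule lectin *Zg16* at 11363 and 12097 CPM. *Reg1*, a secreted lectin, was at 10501 CPM in ApcMin and 16043 CPM in VApcMinL, where the other barcodes also had 548.5 CPM. *Spink1*, the trypsin inhibitor packed with trypsinogen, was at 2987 and 3845 CPM. Its background in VApcMinL was high, at 1122 CPM in the empty droplets and 760.5 CPM in the other barcodes. The granule membrane protein *Gp2* was at 2263 and 1308 CPM, the trefoil peptide *Tff2* at 2895 and 3722 CPM and *Dmbt1* at 1278 and 811.6 CPM. *Pdia2*, a protein folding enzyme typical of the pancreas, was at 800.6 and 630.1 CPM, *Serpini2* at 708.2 and 480.6 CPM and *Cuzd1* at 600.5 and 389.8 CPM. *Rab27b* and *Aqp8* had 0 UMIs in ApcMin, where the floor of 3 counts equals 46.2 CPM, and 4 and 5 UMIs in VApcMinL, where it equals 8.01 CPM.

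Regulators of acinar identity were near the detection limit. *Ptf1a* had 0 UMIs in ApcMin and 5 in VApcMinL, *Rbpjl* 2 and 13 UMIs, and *Bhlha15* 4 and 3 UMIs. *Nr5a2* had 0 and 1 UMIs, *Gata4* 0 and 3 UMIs and *Foxa3* 1 and 3 UMIs. *Rbpjl* in VApcMinL was at 34.7 CPM (18.5 to 59.4), against 0.727 CPM in the other barcodes. *Mecom*, *Foxa2*, *Prox1*, *Onecut1* and *Pdx1* had 0 UMIs in both libraries. *Nupr1*, a stress-induced chromatin protein, was the only listed regulator at a high level, at 1170 CPM (921.9 to 1465) in ApcMin and 1418 CPM (1300 to 1544) in VApcMinL, against 181.8 and 219.0 CPM in the other barcodes. *Xbp1*, a factor of the unfolded protein response, was at 215.6 and 109.5 CPM, against 240.3 and 250.5 CPM. Of the receptors, *Cckar*, which binds cholecystokinin, had 1 and 13 UMIs, *Ptger3* 1 and 5 UMIs and *Fgfr4* 0 and 1 UMI. The acetylcholine receptor genes *Chrm3* and *Chrm1* and the secretin receptor gene *Sctr* had 0 UMIs in both libraries.

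Genes for protein folding in the endoplasmic reticulum (ER) with at least 20 UMIs were not 2-fold higher than in the other barcodes. Below that minimum, *Sel1l* had 13 UMIs in ApcMin and was at 200.2 CPM against 68.27 CPM. The 20 genes of the ER list summed to 2217 CPM in ApcMin and 2395 CPM in VApcMinL. The other barcodes had 3971 and 4403 CPM, and plasma-gene barcodes (at least 30% of UMIs from plasma cell genes), another secretory type, had 5008 and 4627 CPM. Of the ER genes with at least 20 UMIs, 0 of 2 in ApcMin and 0 of 14 in VApcMinL were 2-fold higher than in the other barcodes, and 0 and 5 were 2-fold lower. Their median log2 ratios, 0.51 and -0.60, lay above those of all tested genes, -1.05 and -0.94. The 5 lower genes are therefore not read as a trait of the list. The chaperone gene *Hspa5* was at 246.3 and 336.4 CPM against 977.2 and 1034 CPM. Because acinar genes took most of the UMIs, the list was also scaled to the remaining UMIs, which gave 5748 and 6205 CPM, above the 3973 and 4411 CPM of the other barcodes. The order of the ER list thus changed with the scaling.

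All listed acinar genes together made up a median of 63.2% of a cell's UMIs in ApcMin (14.6 to 79.0%) and 63.6% in VApcMinL (26.3 to 82.7%). Few distinct genes were detected in them. Thinned to 500 UMIs, they had medians of 109 genes in ApcMin and 140 in VApcMinL, close to plasma-gene barcodes at 99 and 101 and below epithelial-gene barcodes (at least 2% from intestinal epithelial genes) at 332.5 and 333 and fibroblast-gene barcodes at 367 and 363. Without thinning the acinar-like cells had 147 genes (107 to 784) and 321 genes (151 to 5911). Epithelial-gene barcodes numbered 62 in ApcMin and 368 in VApcMinL, with median depths of 3440 and 40040 UMIs, and plasma-gene barcodes 689 and 1308, with 5578 and 2696 UMIs.

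Mitochondrial RNA was low in most of the cells. Its median share was 0.20% of UMIs in ApcMin (upper quartile 0.941%) and 0.584% in VApcMinL (upper quartile 3.76%), against medians of 2.70% and 3.24% in the other barcodes and 10.2% and 11.4% in epithelial-gene barcodes. In 41 of 55 cells (74.5%) and 21 of 37 cells (56.8%) the share was below 1%, against 25.7% and 11.5% of the other barcodes. The nuclear RNA *Malat1*, chosen after its values were seen, made up 0.176% and 0.358% of the pooled UMIs, against 2.63% and 2.91% in the other barcodes and 1.34% and 1.39% in the empty droplets. Outside the acinar genes its shares were 0.455% and 0.926%. No *Malat1* UMI was found in 11 ApcMin and 5 VApcMinL cells. Plasma-gene barcodes had median mitochondrial shares of 2.03% and 2.16% and *Malat1* shares of 0.506% and 0.492%. Hemoglobin-gene barcodes, with at least 50% of UMIs from hemoglobin genes, were lower still, at 0.110% and 0.218% mitochondrial RNA, 0.102% and 0.241% *Malat1* and 23 and 43 genes after thinning. They made up 1765 of the 2066 other ApcMin barcodes below 1% mitochondrial UMIs and 549 of the 1094 in VApcMinL.

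Composition differed with depth. In VApcMinL, the median share of the 8 genes was 33.7% in the 11 cells with fewer than 1000 UMIs, 38.6% in the 9 from 1000 to under 2000, 47.6% in the 6 from 2000 to under 8000 and 46.8% in the 11 with 8000 UMIs or more. In ApcMin it was 41.1% in the 12 cells from 1000 to under 2000 UMIs and 46.7% in the 6 deeper ones. The median mitochondrial share in VApcMinL was 3.32% in the shallowest range and 0.226% in the deepest. In ApcMin it was 0.244%, 0.165% and 0.373% in ranges of rising depth. Pooled over cells, the share was 1.44% below 2000 UMIs and 0.501% above in ApcMin, and 5.04% and 2.08% in VApcMinL.

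Some RNA that was abundant in the empty droplets had a lower share in deep than in shallow cells. Immunoglobulin genes (*Igkc*, *Igha* and *Jchain*) made up 4.64% of the UMIs of ApcMin cells with fewer than 2000 UMIs and 0.390% of deeper ones, and 4.62% and 0.201% in VApcMinL, against 13.3% and 15.5% in the empty droplets. The shallow ApcMin value includes 1 cell of 1480 UMIs with 64.5% of these genes, and the median over cells from 1000 to under 2000 UMIs was 1.31% in ApcMin and 3.30% in VApcMinL. The ribosomal RNA-overlapping transcript *Gm42418* made up 11.2% in shallow and 7.56% in deep ApcMin cells, and 4.02% and 0.474% in VApcMinL, against 27.8% and 10.5% in the empty droplets. Hemoglobin genes had the opposite order in VApcMinL, 0.388% in shallow and 1.88% in deep cells, most of it in 1 deep cell.

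Single cells differed in what they held beside acinar RNA. RNA of another cell type above set limits (at least 10% hemoglobin, 20% plasma cell, 2% intestinal epithelial or 1% fibroblast genes) was found in 3 of 55 ApcMin and 5 of 37 VApcMinL cells. These limits were chosen after the data were seen, and no acinar-like cell was removed as a doublet. Without these 8 cells, pooled mitochondrial RNA was 1.08% of UMIs in ApcMin (1.09% with them) and 0.749% in VApcMinL (2.23%), and immunoglobulin genes were 1.57% (3.06%) and 0.675% (0.420%). In ApcMin, 1 cell of 1309 UMIs had 56.7% hemoglobin genes, 1 of 1480 UMIs had 64.5% immunoglobulin genes and 1 of 694 UMIs had 2.74% epithelial genes. In VApcMinL, 1 cell of 39866 UMIs had 16.7% hemoglobin genes beside 44.5% from the 8 genes. The 2 deepest VApcMinL cells, of 51939 and 62783 UMIs, had 2.72% and 3.14% epithelial genes, 5268 and 5911 detected genes and 3.76% and 7.25% mitochondrial UMIs. In these 2 cells the 8 genes still made up 25.9% and 21.3%. The other 2 VApcMinL cells had 2.61% and 1.09% fibroblast genes.

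Below these limits, 1 further ApcMin cell, of 4919 UMIs, held 89.5% of all *Tmsb4x* UMIs and 83.8% of all *Cst3* UMIs of the ApcMin cells. It also held 38 UMIs of *Cd74*, a gene of antigen-presenting cells, of the 47 in the library's acinar-like cells. Also below the limits, a VApcMinL cell of 31004 UMIs held 64 of the 65 *Fabp4* UMIs of the VApcMinL cells. Another, of 14234 UMIs, held 77 of their 238 *Apoe* UMIs. In contrast, a VApcMinL cell of 32471 UMIs had 82.7% acinar genes, 1266 detected genes, 0.00924% mitochondrial UMIs and no *Malat1* UMI. Doublet scores from Scrublet at a set rate removed 0 ApcMin cells and 1 VApcMinL cell.

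**Figure D4:**
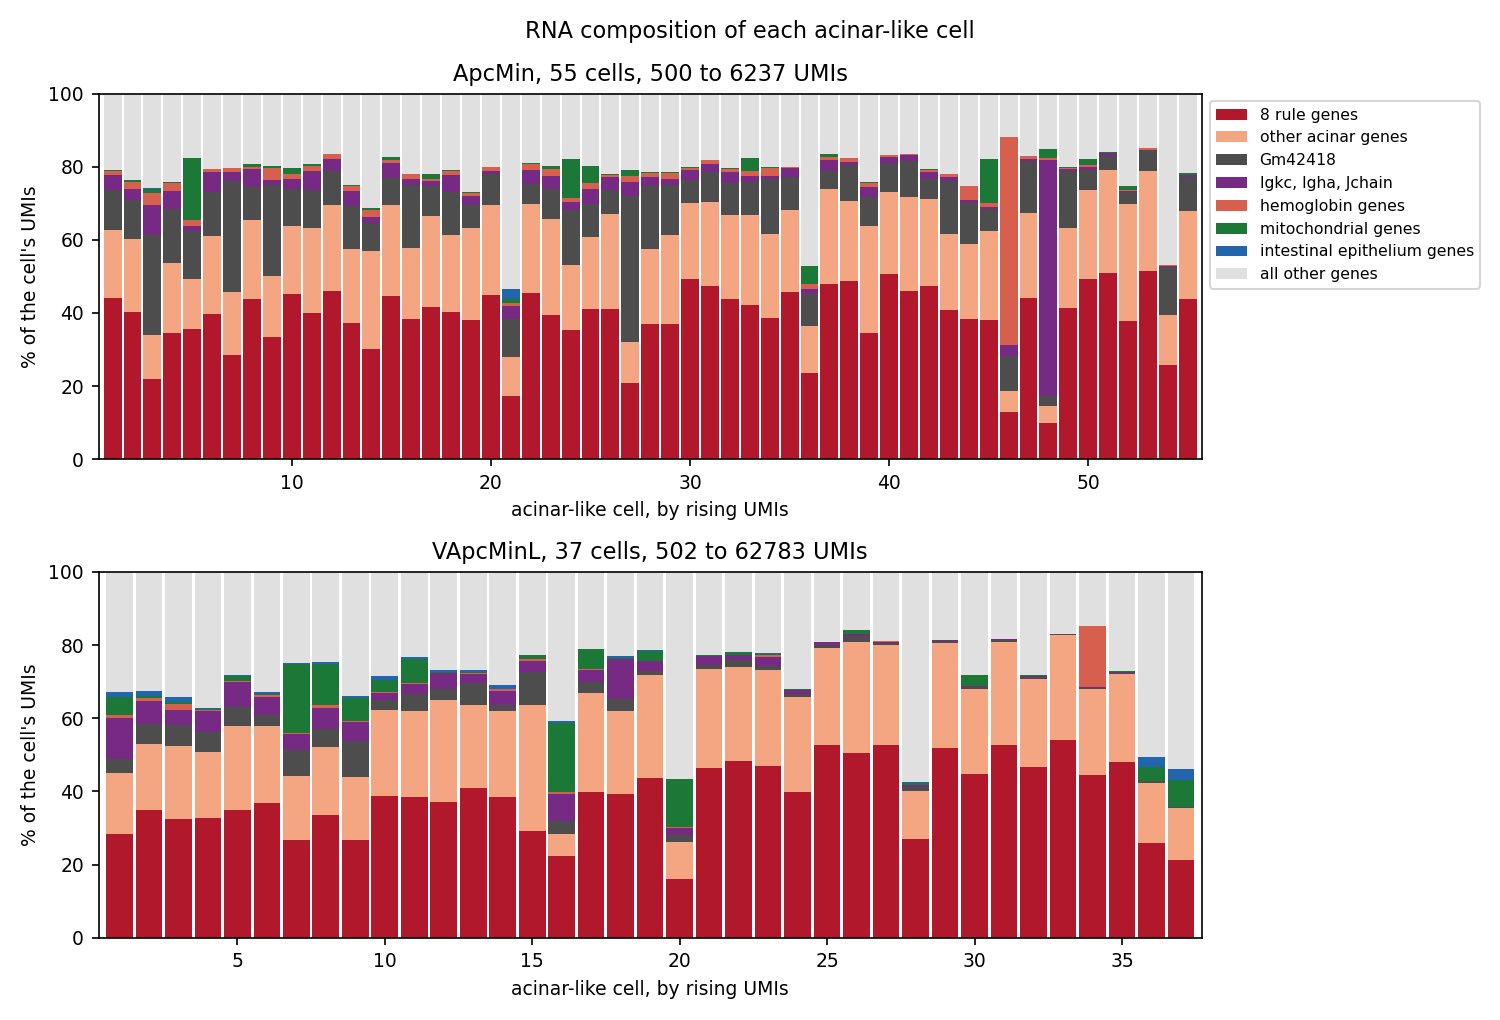
Stacked bars show the percent of UMIs (y) of each acinar-like cell (x, by rising UMIs) that came from the 8 genes, other acinar genes and further gene groups named by color, in ApcMin and VApcMinL. Acinar genes made up medians of 63.2% and 63.6%, and the highest share was 82.7%.

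Markers of islet, salivary, gastric chief and Paneth cells were mostly at or near 0, whereas duct and intestinal epithelial genes were detected in VApcMinL. Of 12 islet genes, 0 in ApcMin and 2 in VApcMinL had a UMI (*Sst* 2 UMIs and *Iapp* 1 UMI), and *Ins1*, *Ins2* and *Gcg* had 0. Of 10 pancreatic duct genes, ApcMin cells had 3 UMIs, all of *Muc1*. VApcMinL cells had 64 UMIs (170.9 CPM, against 395.2 CPM in the other barcodes), led by *Krt19* with 34 and with *Sox9*, *Krt7*, *Spp1* and *Tff1* at 0. Of 10 salivary acinar genes, *Amy1* alone was detected, with 0 UMIs in ApcMin and 31 (82.8 CPM) in VApcMinL. The whole list was at 2.746 CPM in the other VApcMinL barcodes and 4.265 CPM in the empty droplets, so *Amy1* lay above both. It shares 3′ stretches with *Amy2a1*, so its count is uncertain. Of 5 gastric chief cell genes, *Gif* alone was detected, with 3 UMIs in ApcMin. Of 8 Paneth cell genes, *Lyz1* alone was detected, with 5 UMIs in 1 ApcMin cell. Intestinal epithelial genes other than *Zg16*, 15 in all, summed to 25 UMIs (384.9 CPM, most from *Fabp1*) in ApcMin and 3551 UMIs (9480 CPM, most from *Apoa1*) in VApcMinL, against 1181 and 16165 CPM in the empty droplets. Most of these UMIs were in the 2 deepest VApcMinL cells and in 1 ApcMin cell of 694 UMIs. The 7 pan-epithelial genes summed to 16 and 332 UMIs (246.3 and 886.4 CPM), led by *Krt8*. *Epcam*, the antigen of the sort, had 1 UMI in ApcMin and 103 UMIs in 5 VApcMinL cells.

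Stromal and blood lineages were also low. The 10 fibroblast genes summed to 1032 CPM in ApcMin and 2344 CPM in VApcMinL, led by *Dcn*, against 30973 and 25559 CPM in the other barcodes. Without the 8 cells with RNA of another type they made up 0.0992% and 0.0991% of UMIs. Endothelial genes had 1 and 60 UMIs for blood vessels and 2 and 4 for lymphatic vessels. Smooth muscle and pericyte genes had 1 and 5 UMIs, glial genes 1 and 3, mesothelial genes 0 and 34 (all *Krt19*) and fat cell genes 1 and 66 (65 of them *Fabp4*). T cell genes had 1 and 1 UMI, B cell genes 48 and 19 (mostly *Cd74*), myeloid genes 29 and 17, and *Ptprc*, which encodes CD45, 1 and 0. Plasma cell genes summed to 30932 and 4354 CPM, led by *Igkc*, against 133654 and 155646 CPM in the empty droplets. Erythroid genes summed to 19508 and 18115 CPM, led by *Hbb-bs*, against 70809 and 20657 CPM in the empty droplets. Most of these UMIs were in 1 cell of each library, and without the 8 cells with RNA of another type hemoglobin genes made up 0.828% of UMIs in ApcMin (1.95% with them) and 0.0600% in VApcMinL (1.81%).

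Summed per list in CPM, genes of cell state were below their level in the other barcodes, although *Clu* was above it. For the injury list this order changed with the scaling. The 12 immediate early and heat shock genes induced by dissociation summed to 1709 CPM in ApcMin and 5951 CPM in VApcMinL, against 16106 and 18055 CPM in the other barcodes. The 8 cycling genes had 0 and 23 UMIs, 20 of them *Hmgb2*. Of the 12 Wnt pathway genes, *Axin2*, *Nkd1*, *Notum*, *Lgr5* and *Ccnd1* had 0 UMIs in both libraries, *Ctnnb1* 1 and 17 UMIs and *Apc* 1 and 7 UMIs. Of 14 genes of acinar-to-ductal change and injury, 7 in ApcMin and 10 in VApcMinL had a UMI. They summed to 785.2 and 2777 CPM, against 1320 and 4951 CPM in the other barcodes. Scaled to the UMIs outside acinar genes, the sums were 2036 and 7194 CPM, above the other barcodes. In VApcMinL, 689 of the 1040 UMIs were *Reg3b*. On that scale the dissociation list, at 4430 and 15418 CPM, and the cycling and Wnt lists stayed below the other barcodes. *Clu*, a secreted chaperone of injured acini, was at 384.9 CPM (249.1 to 568.2) and 192.2 CPM (150.4 to 242.1), against 48.3 and 58.3 CPM in the other barcodes and 35.7 and 127.2 CPM in the empty droplets. *Reg3b*, with 3 and 689 UMIs (46.2 and 1839 CPM), lay below the other barcodes (470.7 and 2889 CPM) and the empty droplets (234.1 and 3008 CPM).

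The balance of the 8 genes differed between cells and empty droplets. *Cpa1* departed most in ApcMin, at 11.6% of the UMIs of the 8 genes in cells and 7.40% in empty droplets, and it made up 8.33% and 5.41% in VApcMinL, where *Cela2a* made up 9.42% and 5.61%. Of the UMIs of the 8 genes, *Ctrb1* made up 21.5% in ApcMin cells and 26.4% in VApcMinL cells, and 24.0% and 31.2% in the empty droplets. *Pnlip* made up 14.4% and 9.20% in the cells and 13.2% and 9.54% in the empty droplets, so the difference between the libraries was present in both. *Clps* made up 8.08% and 11.8% in the cells and 10.3% and 14.4% in the empty droplets. Single cells with at least 500 UMIs of the 8 genes, 11 in ApcMin and 20 in VApcMinL, ranged from 9.63 to 27.5% and from 20.5 to 33.8% in *Ctrb1*, and from 5.19 to 11.4% and from 1.40 to 15.9% in *Clps*.

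*Clps* was the gene whose share of the 8 genes departed most between cells and other barcodes in VApcMinL, at 11.8% and 26.8%. The ratio of *Clps* to *Ctrb1* UMIs was 0.376 and 0.447 in the cells, 0.430 and 0.462 in the empty droplets, and 0.518 and 1.24 in the other barcodes. In VApcMinL, 113 other barcodes with at least 5 *Clps* UMIs had 4 or more times as many *Clps* as *Ctrb1* UMIs, with 1167 *Clps* and 96 *Ctrb1* UMIs in all, and 105 of them were fibroblast-gene barcodes. In ApcMin there were 7 such barcodes, with 56 *Clps* and 5 *Ctrb1* UMIs. The reverse pattern, with *Ctrb1* in excess of *Clps*, was found in 39 ApcMin and 26 VApcMinL barcodes. Of all 9542 other VApcMinL barcodes, 3919 were fibroblast-gene barcodes. 

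The libraries differed in where pancreatic RNA lay. The ApcMin library held 113213 UMIs of the 8 genes, of which 22.7% were in the 55 acinar-like cells, 11.1% in other barcodes within the limits and 65.3% in barcodes with fewer than 500 UMIs. The VApcMinL library held 206813, of which 71.6% were in the 37 acinar-like cells, 5.30% in other barcodes within the limits and 17.7% in barcodes with fewer than 500 UMIs. Barcodes over the mitochondrial limit held 0.895% and 5.39%.

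Between the genotypes, the tested digestive enzyme genes outside the rule differed by less than 2-fold when all cells were used. Of the 235 genes that reached 100 UMIs in the acinar-like cells of both libraries together, 71 (30.2%) were at least 2-fold higher and 9 (3.83%) at least 2-fold lower in VApcMinL than in ApcMin, and the median log2 ratio was 0.51. The minimum applied to the sum of both libraries, and VApcMinL cells held 374559 UMIs against 64949 in ApcMin, so a gene high in VApcMinL passed it more easily and nothing is read from the higher number of such genes or from this median. None of the 13 tested enzyme genes outside the rule was past 2-fold, with a median log2 ratio of -0.27 (-0.76 to 0.50). The 8 rule genes, whose summed share chose the cells in both libraries, had a median of 0.05 (-0.64 to 0.55), which is given as a description only. These values come from 1 library per genotype and have no replicate check.

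Of these 21 genes, *Cel* and *Pnlip* had the lowest ratios and *Clps* the highest. The log2 ratio was -0.76 (-0.87 to -0.64) for *Cel* and -0.64 (-0.70 to -0.59) for *Pnlip*, and it was -0.47 (-0.53 to -0.42) for *Cpa1*. It was 0.55 (0.48 to 0.62) for *Clps*, 0.50 (-0.16 to 1.23) for *Try10*, 0.32 (0.25 to 0.39) for *Try5* and 0.30 (0.26 to 0.34) for *Ctrb1*. The granule gene *Reg1*, which is not among the 21, was at 0.61 (0.50 to 0.73). Outside the rule, the signs of *Cel* and *Reg1* were the same in every alternative run, whereas those of *2210010C04Rik* and *Nupr1* were not. Among the rule genes, the signs of *Cela2a*, *Cela3b* and *Prss2* were not the same. The rule genes chose the cells, so their ratios are a description only and no stability is read from them.

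Of 13 granule and secretion genes, 1 was past 2-fold. *Reg2*, a secreted lectin related to *Reg1*, was lower in VApcMinL, at 162.9 CPM against 939.2 CPM (log2 ratio -2.53, -3.06 to -1.99). It had 61 UMIs in 18 cells in each library, and its empty-droplet levels were 5.81 CPM in ApcMin and 5.23 CPM in VApcMinL. The log2 ratio was -2.33 without the 8 cells with RNA of another type, -2.64 without the deepest cell of each library and -1.30 as a mean over cells.

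Intestinal epithelial genes were higher in VApcMinL, with most of their UMIs in 2 of the 37 cells. The listed genes *Apoa1*, *Fabp1*, *Fabp2*, *Lgals4* and *Epcam* were at least 2-fold higher, and each reached the minimum by its VApcMinL UMIs alone, so nothing is read from their number. The granule gene *Zg16*, also listed, was at a log2 ratio of 0.09. *Apoa1*, an apolipoprotein of enterocytes, had 2 UMIs in ApcMin and 1463 in VApcMinL (log2 ratio 6.99, 5.13 to 10.03). *Rbp2* (5.35), *Reg3b* (5.32), *Mdh2* (4.43), *Lgals4* (4.22), *Fabp2* (4.16), *Epcam* (4.16), *Apoa4* (3.92) and *Sis* (3.86) followed among all tested genes. Of these, *Lgals4*, *Fabp2* and *Epcam* are also on the epithelial list and *Reg3b* on the injury list. *Lypd8* had 0 UMIs in ApcMin and 267 in VApcMinL, at least 15.4-fold higher. For each of these 10 genes a single VApcMinL cell held between 51.5 and 58.5% of the UMIs. The 2 deepest VApcMinL cells held 800 and 604 of the 1463 UMIs of *Apoa1* and 482 and 302 of the 824 of *Fabp2*. Without the 8 cells with RNA of another type, *Zg16* was the only listed epithelial gene with enough UMIs to test. The empty droplets of VApcMinL were also richer in epithelial genes, at 16165 CPM for the list against 1181 CPM in ApcMin. With the empty-droplet profile subtracted, *Apoa1* was at 6.00, and 76 of 78 genes past 2-fold with all cells remained so.

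Other lists also differed between the libraries. Summed over all their genes, dissociation genes were at 5951 CPM in VApcMinL and 1709 CPM in ApcMin and fibroblast genes at 2344 and 1032 CPM. Of the injury list *Reg3b* and *Krt8* were at 5.32 and 1.20. Both reached the minimum by their VApcMinL UMIs alone (689 and 106, against 3 and 8 in ApcMin), so nothing is read from them. The 2 deepest VApcMinL cells held 369 and 272 of the 689 *Reg3b* UMIs. *Clu* and *Krt18*, which did not reach the minimum, had lower CPM in VApcMinL (192.2 against 384.9 and 32.0 against 107.8). Plasma cell genes were lower in 3 of 3, with *Igha* at -3.63, *Igkc* at -2.60 and *Jchain* at -2.30, and 1 ApcMin cell held 72.0% of the ApcMin UMIs of *Igha* and 36.9% of those of *Igkc*. *Gm42418* (-3.92), *AY036118* (-3.06) and *Lars2* (-2.91), all abundant in the empty droplets, were lower too. *Tmsb4x* (-3.22) and *Cst3* (-2.21) completed the 9 lower genes, and 1 ApcMin cell held most of their ApcMin UMIs. The next lowest, *Hba-a1* (-0.80), had 98.1% of its VApcMinL UMIs in 1 cell, and 0 of 4 erythroid genes was past 2-fold. Without the 8 cells with RNA of another type 2 of 2 were lower (median -3.78), and with a minimum share of 40% for the 8 genes 4 of 4 were higher (median 2.31). Of 3 ER genes, 0 was past 2-fold (median 0.45).

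Many of these differences changed when a few cells or the deep cells were left out. Without the 8 cells with RNA of another type, 134 genes were tested, 2 were higher (*Ubb* at 1.29 and *Rpl11* at 1.02, chosen after their values were seen), 12 were lower and the median log2 ratio was 0.04. The 8 rule genes then had a median of 0.29 and the enzyme genes -0.02, the 3 plasma cell genes were lower by smaller folds (*Igha* -1.2, *Igkc* -1.2 and *Jchain* -1.36), and of the dissociation list only 1 gene reached the minimum (0.75), whereas 9 did without the deepest cell of each library (median 1.88). Among cells with fewer than 2000 UMIs, 43 genes were tested. Of these, 7 were higher, *Malat1* at 2.21 and 6 mitochondrial genes, and 4 were lower, *Gm42418* at -1.48 and the hemoglobin genes *Hbb-bs* at -2.30, *Hba-a1* at -3.76 and *Hba-a2* at -4.01. A VApcMinL cell with fibroblast genes held 134 of the 177 *Malat1* UMIs but 47 of the 201 of mt-Co3, and an ApcMin cell with hemoglobin genes held 313 of 387 *Hba-a1*, 213 of 284 *Hba-a2* and 211 of 486 *Hbb-bs* UMIs. Without the 8 cells with RNA of another type, at all depths, *Hba-a1* was at -3.85 and *Hbb-bs* at -3.71. At that depth 0 of the 3 plasma cell genes was past 2-fold, with a median of 0.27, and the 8 rule genes had a median of -0.28. With a minimum share of 40%, 123 genes were tested, 13 were higher, among them the enzyme gene *Try10* (1.09), and 9 were lower, among them the granule genes *Cuzd1* (-1.17), *Dmbt1* (-1.18) and *Gp2* (-1.18). Of the enzyme genes outside the rule, 0 of 13 was past 2-fold without the 8 cells and 0 of 11 among cells with fewer than 2000 UMIs.

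**Figure D5:**
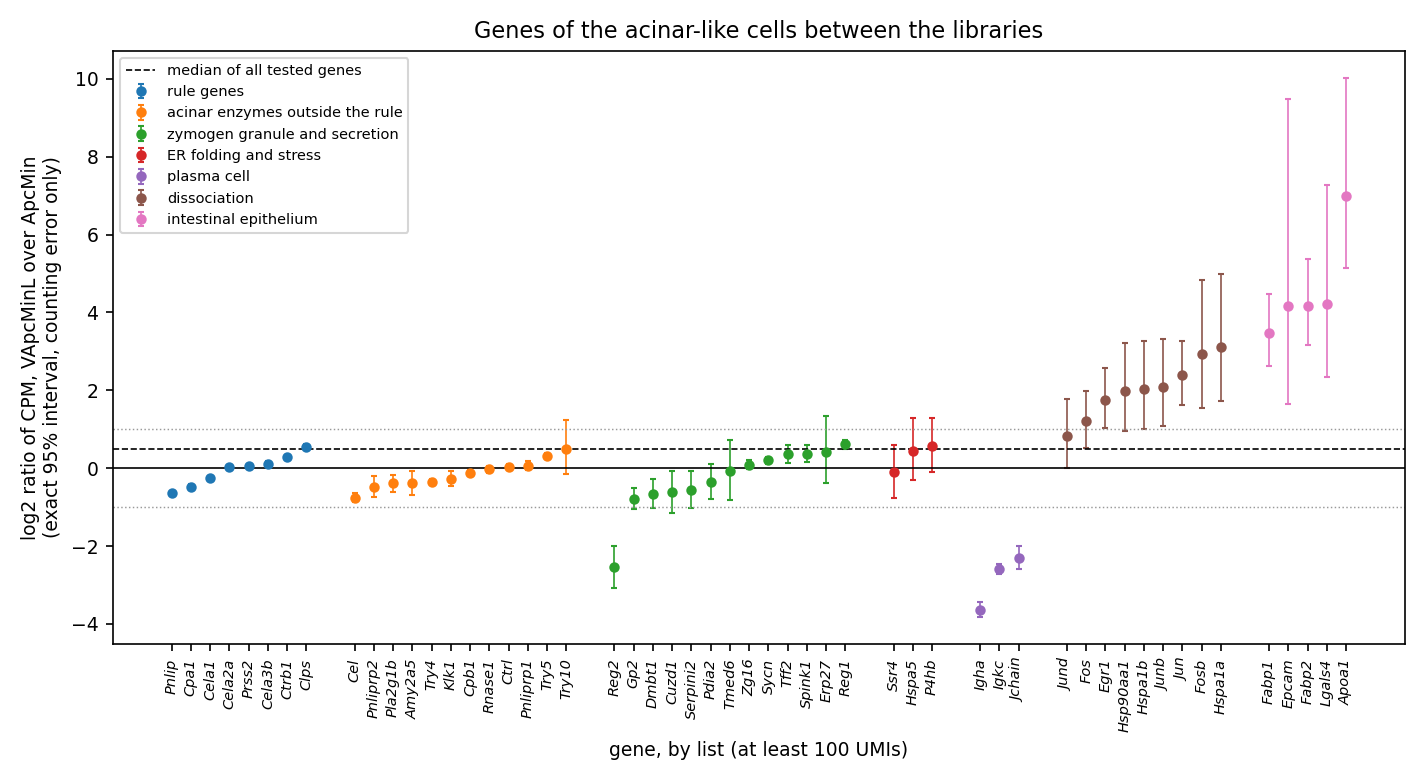
Log2 ratio of CPM in the acinar-like cells, VApcMinL over ApcMin, for tested genes of 7 lists (points, colored by list, with exact 95% intervals), with *Zg16* shown among the granule genes only, dotted lines at 2-fold and a dashed line at the median of all 235 tested genes, 0.51. Rule and enzyme genes lay between -0.76 and 0.55, whereas the highest gene, *Apoa1*, was at 6.99.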

How the data were processed

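The authors deposited UMI counts per gene and barcode for both libraries, as whole numbers without normalization or cell calling. The submitters' processing notes name Cell Ranger 2.1.1 and Seurat 3.1.1 with mm10 (GRCm38), whereas the matrix headers name release 3.1.0. All 6794880 barcodes listed in each library were read, using scanpy 1.11.5, anndata 0.12.19, pandas 2.3.3, scipy 1.17.1 and numpy 2.4.6 under Python 3.11.15, and matplotlib 3.10.9 drew the plots. Barcodes with at least 500 UMIs and at most 20% mitochondrial UMIs were kept, 8097 in ApcMin and 9579 in VApcMinL, and no doublets were removed. As an alternative, barcodes with the highest Scrublet scores were dropped, 0.8% for each 1000 barcodes. Counts of the acinar-like cells were summed per library and divided by their total (64949 and 374559 UMIs) to give CPM. Deep cells therefore weigh most in these values. The 5 VApcMinL cells with RNA of another type had 1683, 11517, 39866, 51939 and 62783 of the 374559 UMIs. The 3 such ApcMin cells had 694, 1309 and 1480 of the 64949 UMIs. Intervals are exact 95% binomial or Poisson intervals, and ratios have exact conditional binomial intervals. Where a library had 0 UMIs of a gene, 3 counts gave the bound of its ratio. There were no tests. Between the libraries, genes with at least 100 UMIs were compared, and a ratio past 2-fold was counted.

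Named genes are those of the fixed lists (acinar enzymes, granule, regulators, receptors, ER, injury, duct, islet, salivary, gastric chief, Paneth, intestinal and pan-epithelial, fibroblast, endothelial, smooth muscle, glia, mesothelium, fat, blood lineages, dissociation, cycling and Wnt). Added to them are the 20 most abundant genes outside the rule at 4 or more times their empty-droplet level, and the 10 largest and 10 smallest ratios between the libraries, except genes of the mitochondrion, Xist and the Y chromosome. The cells and lists were chosen with earlier results of these data known. *Amy2b* was not among the genes in the files, and Cblif is in them under its older symbol *Gif*. Cells were thinned to 500 UMIs with a fixed seed, using up to 500 barcodes of each other class. Libraries were grouped by the genotype in the labels. Alternatives changed the minimum of UMIs, the mitochondrial limit (10% or none), the share of the 8 genes (5, 20 or 40%), the genes that select cells, the empty range, the scaling (UMIs outside acinar genes, or the mean over cells) and the minimum of UMIs per gene, subtracted the empty-droplet profile, or left out the deepest cell of each library. Some genes of the lists are not reported here by name or in the plots. Gene positions are from GENCODE vM21 and promoters from RefSeq starts on GRCm38.p6. The calculations were tested on simulated counts.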

Additional observations from a re-analysis of the deposited data

Results flagged for a closer look

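Pancreatic RNA was also found in barcodes that the comparisons do not use. In ApcMin, 554 barcodes with 100 to under 500 UMIs, within the mitochondrial limit, had at least 10% of UMIs from the 8 genes, with a median of 181 UMIs, a median share of 16.9% and 25009 UMIs of the 8 genes in all. In VApcMinL there were 122 such barcodes, with a median of 257 UMIs, a median share of 16.8% and 6818 UMIs. Acinar enzyme genes outside the rule made up medians of 7.10% and 7.44% in them. From 400 to under 500 UMIs, 27 of 180 ApcMin barcodes (15.0%) and 16 of 429 VApcMinL barcodes (3.73%) reached 10%. Above the mitochondrial limit, at 500 UMIs or more, 2 ApcMin barcodes (median 637.5 UMIs) and 3 VApcMinL barcodes (median 2218 UMIs, the deepest 22602 UMIs) reached 10%, with median shares of 20.0% and 15.4%.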

How the results depend on the processing

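No paired analysis was possible because there was 1 library of each genotype. Of the values recomputed other than named genes, 90 stayed within their interval or within 1.5 times the count, 32 moved beyond it and 2 reversed. Of the values of 32 named genes, 317 stayed, 169 moved and 4 reversed, where a changed sign counts as reversed only for a gene past 2-fold with all cells. The alternatives at 200 UMIs, at 500 to under 2000 UMIs and without cells with RNA of another type were chosen after seeing the data. The number of ApcMin cells was 18 at 1000 UMIs, 6 at 2000 UMIs, 29 at a 40% share and 275 at 200 UMIs, and that of VApcMinL cells 17 at 2000 UMIs, 15 at 40%, 142 at 200 UMIs and 20 at 500 to under 2000 UMIs. The ratio of shares, VApcMinL over ApcMin, reversed to 1.28 at 1000 UMIs and 2.70 at 2000 UMIs and was 0.202 at 200 UMIs and 0.198 at 500 to under 2000 UMIs. The median share of the 8 genes was 46.7% and 46.9% at 2000 UMIs, 44.9% and 48.0% at 40%, and 28.0% and 21.1% at 200 UMIs. The median enzyme share in ApcMin was 19.2% at 2000 UMIs and 11.2% at 200 UMIs, and in VApcMinL 19.9% at 40% and 9.01% at 200 UMIs. The empty-droplet share was 0.386% and 0.0526% in barcodes of 10 to 100 UMIs and 0.0789% and 0.0939% in the 90000 barcodes after rank 90000. The number of genes past 2-fold higher in VApcMinL was 13 at 40%, 35 with cells selected by enzyme genes outside the rule, 7 at 500 to under 2000 UMIs, 2 without cells with RNA of another type, 22 without the deepest cell of each library and 370 with a minimum of 20 UMIs per gene. The number past 2-fold lower was 4 at 500 to under 2000 UMIs and 34 with 20 UMIs per gene. Reversed log2 ratios of named genes were 0.27 for *Cst3* and 0.20 for *Tmsb4x* with cells selected by enzyme genes. At 500 to under 2000 UMIs they were 0.27 for *Igkc* and 0.60 for *Jchain*. Among all tested genes past 2-fold with all cells, the sign changed for 2 at 40%. It changed for 4 without cells with RNA of another type and for 4 as a mean over cells. The cause was not tested. Subtracting the empty-droplet profile removed 24.6% and 12.7% of the cells' UMIs. These amounts were set by the hemoglobin and immunoglobulin UMIs of all cells, including those with RNA of another type, and do not measure background alone. Depth limits what can be said of regulators and receptors: in ApcMin the 55 cells held 64949 UMIs, so 3 counts equal 46.2 CPM. The number of mice is unknown, and counts of paralogs with shared 3′ sequence are uncertain.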
